A study of Mus musculus with 6 samples.

Results

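Proteins that bind pre-mRNA and choose which exons are kept were examined here as transcripts that ribosomes translate. The group held the 52 protein-coding mouse genes whose symbols name them as hnRNP genes (20), SR genes of the Srsf series (11), or members of the RBFOX (3), NOVA (2), ELAVL (4), PTBP (3), CELF (6) and MBNL (3) families. They were found by matching gene identifiers to symbols in GENCODE, a rule that uses symbols alone. All 52 were among the 31053 genes listed for each library.

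The libraries came from wild-type C57BL/6J mice, as cortical neurons cultured from embryonic day 18 embryos, treated with floxuridine at DIV 3 (day in vitro 3), infected with AAV at DIV 6 and collected at DIV 14, and each was a bulk RNA-seq library. In one group of 3 libraries the virus carried RPL10A-STAMP, in which rat APOBEC1 was joined to mouse Rpl10a, and in the other group of 3 it carried RPL22-STAMP, in which the same enzyme was joined to mouse Rpl22. Both were switched on with Dox at 1 µg per ml for 48 h, through a transactivator under the synapsin promoter, so expression was directed to neurons while RNA of all cells in the dish was sequenced. APOBEC1 turns C into U in RNA near the ribosome that carries it, and EPR, the number of edits per sequenced read of a gene, was the measured value. The comparison asks whether these transcripts are marked to a different degree by the constructs. Rpl10a was placed at the C-terminal end of APOBEC1 and Rpl22 at the N-terminal end. The ribosomal protein, the side of the fusion and the level of the construct therefore cannot be told apart here. In bulk libraries, fewer neurons carrying edits and fewer edits per transcript in each neuron cannot be told apart.

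Splicing of neuronal pre-mRNA is set by the balance of these proteins. SR proteins bind enhancers in exons and favour their inclusion, hnRNP proteins coat nascent transcripts and often repress splice sites, and RBFOX, NOVA, ELAVL, PTBP, CELF and MBNL proteins act from introns or exons according to where they bind. Many of these genes have close relatives that share targets, and many limit their own level by including exons that lead to decay of their own mRNA.

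Genes whose EPR exceeded 0 are termed edited. The study also counted edits in uninfected neurons, which were not used here. An EPR above 0 can therefore include background that the enzyme did not make. Between 9892 and 11195 genes were edited per library, and the median EPR of the 8046 genes that were edited throughout was 0.0120, 0.0153 and 0.0161 in RPL10A-STAMP neurons and 0.00907, 0.0129 and 0.0112 in RPL22-STAMP neurons. One read number is stated for all samples, but the reads behind each gene's EPR are unknown, so no counting error could be given. All 10 neuronal marker genes were edited in all 6 libraries. Their summed EPR ran from 0.254 to 0.301 with RPL10A-STAMP and from 0.239 to 0.315 with RPL22-STAMP. Of 6 astrocyte markers 4 were edited in all 6 libraries. The summed EPR of the 6 ran from 0.188 to 0.238 with RPL10A-STAMP and from 0.109 to 0.258 with RPL22-STAMP. Of 6 oligodendrocyte markers, *Mbp* alone was edited in all 6 libraries and *Mog* and *Mag* were at 0 throughout, and of 6 microglia markers none was edited in all 6 libraries and *Csf1r*, *P2ry12*, *Aif1* and *Tmem119* were at 0 throughout. EPR is a ratio and not an RNA level, and the part of other cell types in the results was not tested.

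Of the 52 genes, 49 were edited in all 6 libraries (94.2%), against 36.1% of the 21974 listed protein-coding genes. The reads per gene are unknown, and the part of read depth in this gap was not tested. *Mbnl3*, the MBNL gene best known outside the brain, was at 0 in all 6. *Ptbp1* was at 0 in RPL22-STAMP replicate 3 and *Srsf4* in RPL10A-STAMP replicate 3, and a value of 0 can come from no edits or from no reads.

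To compare the variants, libraries were scaled to a common median and log2(EPR + 0.01) was fitted with limma, and a gene is called changed at a Benjamini-Hochberg adjusted p under 0.05 over the 8046 genes edited in all 6 libraries. Fold changes are RPL10A-STAMP over RPL22-STAMP on scaled values, and because 0.01 is close to the EPR of these genes they understate the ratio of scaled EPR. The ratios of means given beside them are of EPR as deposited, without scaling. Those ratios therefore also hold the difference between the library medians, and the 2 measures are not on the same footing. Among all tested genes, 14.3% were called, 8.51% as higher with RPL10A-STAMP and 5.77% as higher with RPL22-STAMP. The neuronal markers were not even between the variants. Of these 10 genes 3 were called (30.0%), *Syn1*, *Camk2a* and *Gad2*, all higher with RPL22-STAMP, and the median log2 fold change of the 10 was -0.26. None of the 4 astrocyte markers tested was called, and their median was -0.19. Of the 49 splicing genes 4 were called (8.16%), namely *Mbnl1*, *Rbfox1* and *Hnrnpdl*, which were higher with RPL10A-STAMP, and *Nova1*, which was higher with RPL22-STAMP. The median log2 fold change over the 49 was 0.04, with 28 genes above 0 and 21 below, and over all tested genes it was -0.01. As deposited, EPR did not overlap between the variants for 19 of the 49 genes, each with RPL10A-STAMP the higher (38.8%, against 28.2% of all tested genes). After scaling they were apart with RPL10A-STAMP the higher for 15 (30.6%, against 20.0%) and RPL22-STAMP for 8 (16.3%, against 17.1%). Without scaling the median of all genes moved to 0.18, a shift of 0.19, and the 4 splicing genes then called were all higher with RPL10A-STAMP, with *Elavl4* in place of *Nova1*, where 11.9% of all tested genes were called in that direction and 1.6% in the other. The share of calls that were higher with RPL10A-STAMP moved from 59.6% to 88.1% over all genes.

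**Figure D1:**
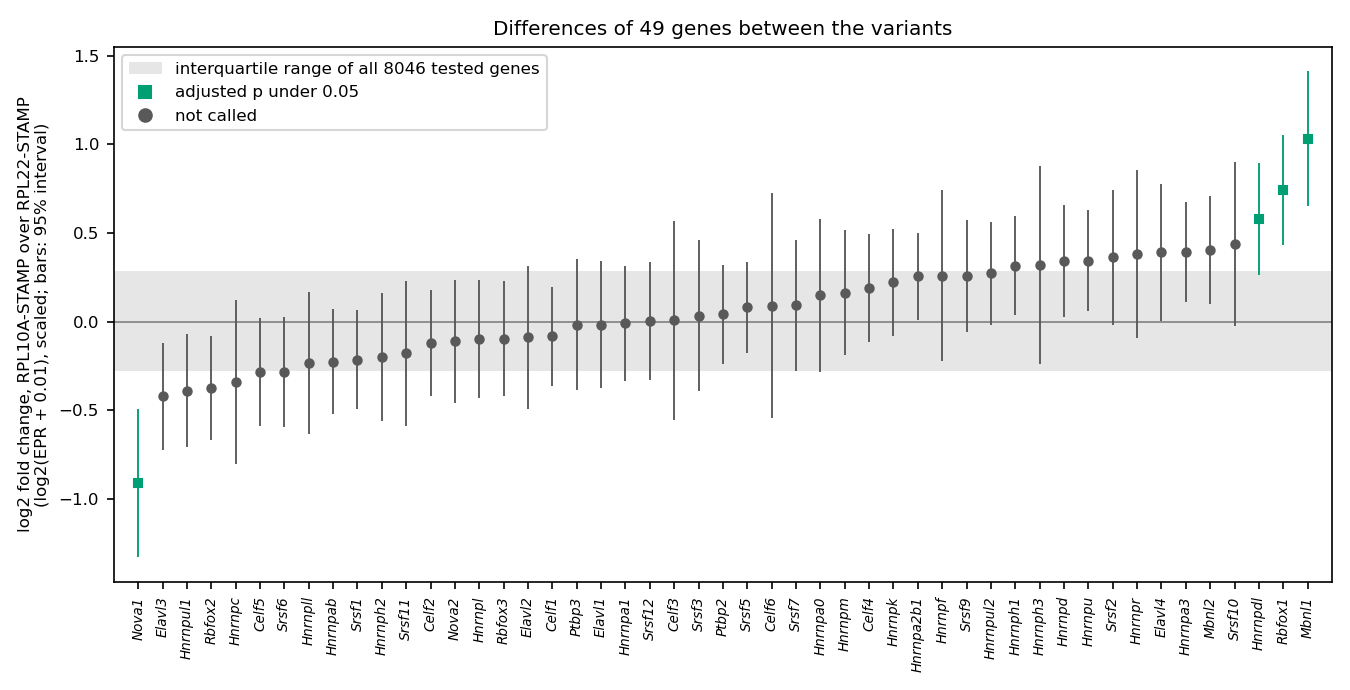
Log2 fold change of EPR (vertical axis, RPL10A-STAMP over RPL22-STAMP, on log2(EPR + 0.01) of scaled values, n = 3 libraries per variant) of the 49 genes edited in all 6 libraries, in rising order, with 95% confidence intervals from limma. The 4 called genes (squares) lie outside the grey band, which is the interquartile range of all 8046 tested genes (-0.28 to 0.29), while most of the others (circles) lie inside it or have intervals that reach 0.

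RBFOX proteins bind GCAUG in introns beside alternative exons and switch on exons of synaptic and channel genes. *Rbfox1* (ENSMUSG00000008658, GRCm38 chr16:5885355-7411526, plus strand) was the RBFOX gene that was called. Its EPR was 0.0308, 0.0370 and 0.0409 in the RPL10A-STAMP libraries and 0.0124, 0.0130 and 0.0132 in the RPL22-STAMP libraries. The groups did not overlap, and the 3 RPL22-STAMP values spanned less than the gap between the groups. The mean was 0.0362 ± 0.00513 (SD, n = 3) against 0.0129 ± 0.000447 (SD, n = 3), a ratio of 2.81, and the log2 fold change was 0.74 ± 0.13 (SE; limma, adjusted p = 0.0145). With RPL10A-STAMP replicate 2 left out the limma adjusted p became 0.0510, and with replicate 3 of that variant left out 0.0621.

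*Rbfox2*, which is also expressed widely outside the brain, had an EPR of 0.0115, 0.0142 and 0.0150 in RPL10A-STAMP neurons and 0.0137, 0.0168 and 0.0176 in RPL22-STAMP neurons. The groups overlapped as deposited, and after scaling all 3 RPL22-STAMP libraries were the higher ones, with a log2 fold change of -0.37 ± 0.12 (SE) that was not called (limma, adjusted p = 0.0892). *Rbfox3*, whose protein is the neuronal nuclear antigen NeuN, had an EPR of 0.00973, 0.0139 and 0.0159 in RPL10A-STAMP neurons and 0.0112, 0.0109 and 0.0112 in RPL22-STAMP neurons. The RPL22-STAMP values of *Rbfox3* lay within the range of the RPL10A-STAMP values, and its log2 fold change was -0.10 ± 0.14 (SE; limma, adjusted p = 0.678), or 0.13 without scaling.

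The RBFOX genes are related in the part that encodes the start of the RNA-binding domain, and a stretch of it is shown so that the bases open to the enzyme can be compared. The lines below give the 69 bases of the coding strand (GENCODE transcripts, GRCm38) that encode the same 23 residues in each gene, within 1 exon, with every C, the base APOBEC1 can edit, in capitals. They lie at chr16:7277100-7277168 (plus strand, exon 3 of *Rbfox1*), chr15:77116921-77116989 (minus strand, exon 4 of *Rbfox2*) and chr11:118505623-118505691 (minus strand, exon 6 of *Rbfox3*).
Rbfox1: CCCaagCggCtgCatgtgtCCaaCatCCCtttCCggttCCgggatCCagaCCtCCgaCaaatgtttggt
Rbfox2: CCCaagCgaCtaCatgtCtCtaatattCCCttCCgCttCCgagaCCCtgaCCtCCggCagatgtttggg
Rbfox3: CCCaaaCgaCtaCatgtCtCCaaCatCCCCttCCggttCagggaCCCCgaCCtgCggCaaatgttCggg
*Rbfox1* holds 23 C in this stretch, *Rbfox2* 24 and *Rbfox3* 26, and 3, 4 and 6 of these follow an A. *Rbfox1* is identical to *Rbfox2* at 79.7% of the bases and to *Rbfox3* at 82.6%, with 14 and 12 bases that differ, and 20 and 21 positions hold a C in both genes of these pairs. The positions of the edits were not analysed here, so whether edits fell in this stretch is not known, and the part of sequence in the difference was not tested.

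Within a library the ratio between a pair of genes does not depend on scaling. The EPR of *Rbfox1* was 2.68, 2.60 and 2.72 times that of *Rbfox2* in the RPL10A-STAMP libraries and 0.903, 0.775 and 0.753 times in the RPL22-STAMP libraries. Against *Rbfox3*, it was 3.16, 2.67 and 2.58 times in RPL10A-STAMP neurons and 1.11, 1.19 and 1.19 times in RPL22-STAMP neurons. *Rbfox1* was the most edited RBFOX gene by a wide margin with one construct, and close to its relatives with the other.

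MBNL proteins bind RNA through zinc fingers, promote the adult pattern of splicing, and are the proteins trapped by the expanded CUG repeats of myotonic dystrophy. *Mbnl1* (ENSMUSG00000027763, GRCm38 chr3:60472830-60629750, plus strand) showed the greatest fold change of the 49 genes. Its EPR was 0.0302, 0.0526 and 0.0612 in RPL10A-STAMP neurons and 0.0106, 0.0165 and 0.0119 in RPL22-STAMP neurons. The groups did not overlap, although the RPL10A-STAMP libraries were spread widely among themselves. The mean was 0.0480 ± 0.0160 (SD, n = 3) against 0.0130 ± 0.00309 (SD, n = 3), a ratio of 3.70, and the log2 fold change was 1.03 ± 0.16 (SE; limma, adjusted p = 0.00949). The call held without each library in turn, and was lost when a trend with the GC content of transcripts was removed, where it stood at a log2 fold change of 0.58 (limma, adjusted p = 0.0624).

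*Mbnl2*, the MBNL gene most tied to splicing in the brain, had an EPR of 0.0265, 0.0366 and 0.0404 in RPL10A-STAMP neurons and 0.0135, 0.0232 and 0.0170 in RPL22-STAMP neurons. Its groups did not overlap either, and the ratio of means was 1.93, but its log2 fold change of 0.40 ± 0.13 (SE) was not called (limma, adjusted p = 0.0819) and was 0.0369 with the GC trend removed. The EPR of *Mbnl1* was 1.14, 1.44 and 1.51 times that of *Mbnl2* with RPL10A-STAMP and 0.784, 0.709 and 0.701 times with RPL22-STAMP, so the order of the pair was turned between the constructs in all 6 libraries.

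The MBNL pair is shown for the same comparison of bases, over 93 bases that encode the same 31 residues in both, at chr3:60613308-60613400 (plus strand, exon 4 of *Mbnl1*) and chr14:120388945-120389037 (plus strand, exon 5 of *Mbnl2*), with every C in capitals.
Mbnl1: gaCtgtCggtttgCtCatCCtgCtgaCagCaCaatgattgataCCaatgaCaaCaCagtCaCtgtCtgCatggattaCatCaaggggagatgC
Mbnl2: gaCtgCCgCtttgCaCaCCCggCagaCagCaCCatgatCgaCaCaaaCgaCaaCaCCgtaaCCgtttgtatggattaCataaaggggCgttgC
The stretches are identical at 79.6% of the bases. They differ at 19 bases. *Mbnl1* has fewer C here, 22 against 27, of which 9 against 13 follow an A, and 17 positions hold a C in both.

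NOVA proteins bind clusters of short pyrimidine-flanked CA motifs and control splicing of synaptic transcripts. *Nova1* (ENSMUSG00000021047, GRCm38 chr12:46694517-46818929, minus strand) had the highest mean EPR of the 49 genes, 0.0392, and was the called gene of the group that was higher with RPL22-STAMP. Its EPR was 0.0220, 0.0379 and 0.0270 in RPL10A-STAMP neurons and 0.0357, 0.0522 and 0.0606 in RPL22-STAMP neurons. As deposited the groups overlapped, since RPL10A-STAMP replicate 2 lay above RPL22-STAMP replicate 1, and after scaling they did not. The mean was 0.0290 ± 0.00812 (SD, n = 3) against 0.0495 ± 0.0127 (SD, n = 3), a ratio of 0.585, and the log2 fold change was -0.91 ± 0.18 (SE; limma, adjusted p = 0.0191). Its sign held under all 19 alternatives, but without scaling the log2 fold change was -0.61 and the call was lost (limma, adjusted p = 0.146). The limma adjusted p was also 0.0602, 0.0772 and 0.0519 with RPL10A-STAMP replicate 1, RPL10A-STAMP replicate 3 or RPL22-STAMP replicate 3 left out. With the replicate number as a block in the fit the limma adjusted p was 0.0575.

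*Nova2*, the relative that predominates in the neocortex, had an EPR of 0.0163, 0.0177 and 0.0189 in RPL10A-STAMP neurons and 0.0118, 0.0226 and 0.0131 in RPL22-STAMP neurons. RPL22-STAMP replicate 2 was its highest library and the other two of that group its lowest, and the log2 fold change was -0.11 ± 0.15 (SE; limma, adjusted p = 0.650), or 0.12 without scaling. In every library *Nova1* was edited more than *Nova2*, by 1.35, 2.13 and 1.43 times in RPL10A-STAMP neurons and 3.03, 2.32 and 4.62 times in RPL22-STAMP neurons. Exons of *Gm26821* on the opposite strand cover 31.7% of the exonic bases of *Nova2*, and whether reads were counted by strand is not given in the sources used here.

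**Figure D2:**
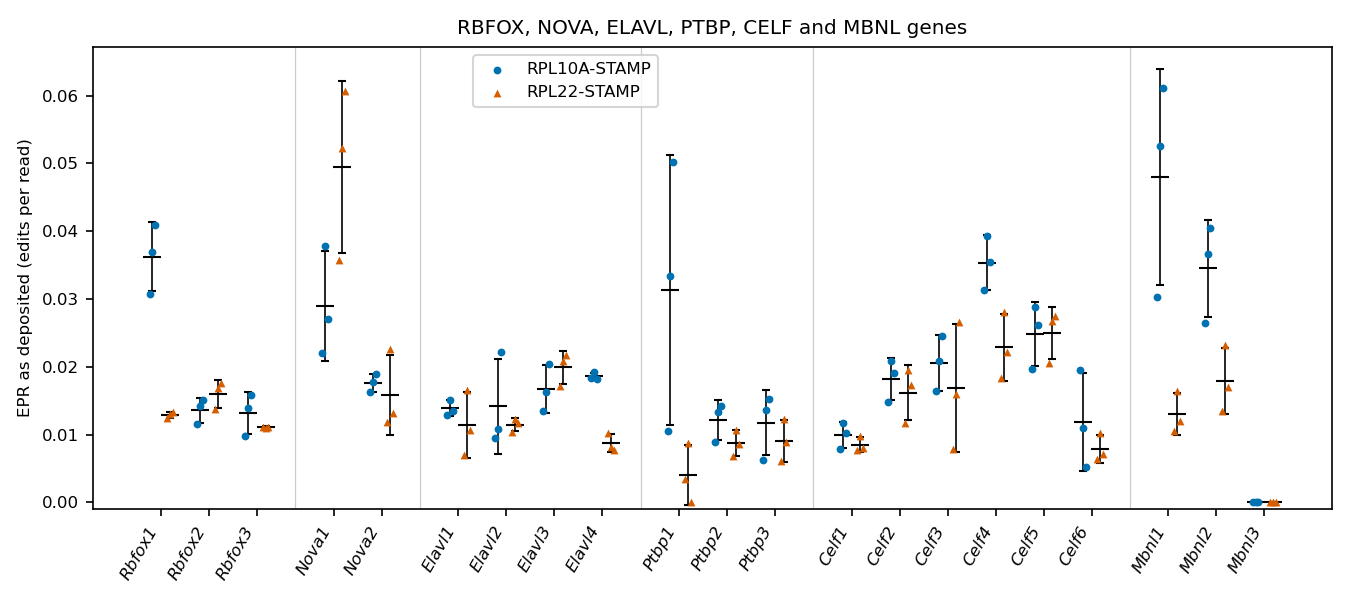
EPR as deposited (vertical axis, edits per read, linear) of the RBFOX, NOVA, ELAVL, PTBP, CELF and MBNL genes, with circles for the 3 RPL10A-STAMP libraries, triangles for the 3 RPL22-STAMP libraries, and black lines for the mean and SD of each group. *Rbfox1*, *Elavl4*, *Ptbp1*, *Celf4*, *Mbnl1* and *Mbnl2* have RPL10A-STAMP values above all their RPL22-STAMP values, *Nova1* is mostly the other way round, and *Mbnl3* is at 0 throughout.

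ELAVL proteins, the Hu antigens, bind U-rich and AU-rich sequences and act on splicing in the nucleus and on stability and translation in the cytoplasm. None of the 4 genes was called. *Elavl4* (HuD, a neuronal member) had an EPR of 0.0184, 0.0192 and 0.0182 in RPL10A-STAMP neurons and 0.0102, 0.00821 and 0.00775 in RPL22-STAMP neurons. Its groups were far apart relative to their own spread, with a ratio of means of 2.13 and a log2 fold change of 0.39 ± 0.16 (SE; limma, adjusted p = 0.158), and it was called without scaling (0.61; limma, adjusted p = 0.0456), whereas with the GC trend removed the log2 fold change was -0.0288.

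*Elavl3* (HuC), which marks neurons, had an EPR of 0.0135, 0.0162 and 0.0204 in RPL10A-STAMP neurons and 0.0172, 0.0209 and 0.0218 in RPL22-STAMP neurons. These groups overlapped as deposited and not after scaling, with a log2 fold change of -0.42 ± 0.13 (SE; limma, adjusted p = 0.0721). The ratio of *Elavl4* to *Elavl3* within a library was 1.36, 1.184 and 0.894 in RPL10A-STAMP neurons and 0.594, 0.393 and 0.356 in RPL22-STAMP neurons, without overlap. *Elavl1* (HuR, present in most cells) ran from 0.0129 to 0.0152 with RPL10A-STAMP and from 0.00699 to 0.0166 with RPL22-STAMP, and *Elavl2* (HuB) from 0.00952 to 0.0222 and from 0.0104 to 0.0123. In both the groups overlapped, and the log2 fold changes were -0.02 and -0.09, or 0.18 and 0.13 without scaling.

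PTBP proteins bind pyrimidine tracts and repress neuronal exons, and neurons replace PTBP1 with PTBP2 as they form. *Ptbp2* had an EPR of 0.00883, 0.0134 and 0.0142 in RPL10A-STAMP neurons and 0.00688, 0.0107 and 0.00861 in RPL22-STAMP neurons. *Ptbp3* had 0.00630, 0.0137 and 0.0153 in RPL10A-STAMP neurons and 0.00606, 0.0122 and 0.00890 in RPL22-STAMP neurons. Both overlapped between the groups, with log2 fold changes of 0.04 ± 0.12 and -0.02 ± 0.16 (SE; the second was 0.18 without scaling), and in no library did either exceed the median of all genes edited throughout. Their ratio to each other also overlapped, at 1.40, 0.977 and 0.927 in RPL10A-STAMP neurons and 1.14, 0.873 and 0.967 in RPL22-STAMP neurons.

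*Ptbp1* had an EPR of 0.0105, 0.0333 and 0.0501 in RPL10A-STAMP neurons and 0.00345, 0.00868 and 0 in RPL22-STAMP neurons. All RPL10A-STAMP values were above the RPL22-STAMP values, but the gene spread over a wide range within each group. With the filter set at 3 edited libraries, the log2 fold change of *Ptbp1* was 1.27 ± 0.38 (SE) and was not called (limma, adjusted p = 0.106).

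CELF proteins bind GU-rich RNA, and several oppose MBNL proteins at shared exons. None of the 6 genes was called, the log2 fold changes ran from -0.28 to 0.19, and none had an unadjusted p under 0.05. *Celf4*, which is enriched in excitatory neurons, had the highest mean EPR of the family, with 0.0313, 0.0394 and 0.0355 in RPL10A-STAMP neurons and 0.0183, 0.0281 and 0.0222 in RPL22-STAMP neurons. Its groups did not overlap (ratio of means 1.55; log2 fold change 0.19 ± 0.13, SE; limma, adjusted p = 0.360). *Celf1*, the broadly expressed founding member, had the lowest mean EPR, with 0.00787, 0.0116 and 0.0103 in RPL10A-STAMP neurons and 0.00767, 0.00974 and 0.00804 in RPL22-STAMP neurons, and these overlapped. The mean EPR therefore ranged from 0.00920 for *Celf1* to 0.0291 for *Celf4* within this 1 family.

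The hnRNP genes were edited at low levels. Each gene's EPR was placed among the 8046 genes of its library as a percentile and averaged over the 6 libraries. The median over the 20 hnRNP genes was 39.9, and 17 of the 20 were below the 50th percentile. The exceptions were *Hnrnpf* (85.1) and *Hnrnpc* (83.4), which bind G-rich and U-rich tracts, and *Hnrnpr* (61.4), a relative of *Syncrip*. Over all 49 splicing genes the median percentile was 47.7 and 30 were below the 50th.

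*Hnrnpf* had the highest mean EPR of the family, with 0.0287, 0.0544 and 0.0367 in RPL10A-STAMP neurons and 0.0142, 0.0316 and 0.0277 in RPL22-STAMP neurons, and its groups overlapped. *Hnrnpm*, a regulator of exon skipping, had the lowest, with 0.00327, 0.00994 and 0.00519 in RPL10A-STAMP neurons and 0.00345, 0.00357 and 0.00202 in RPL22-STAMP neurons, which overlapped too. Their means over the 6 libraries were 0.0322 and 0.00457. Of the transcript of *Hnrnpf* 27.2% recurs exactly elsewhere in the genome in runs of at least 50 bases, as does 91.7% of that of *Hnrnpa3* and 43.5% of that of *Hnrnpa1*, so reads of these genes are uncertain. A gene on the same strand, *March2*, shares 14.7% of the exonic bases of *Hnrnpm*. No such copy was found for the 4 called genes.

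**Figure D3:**
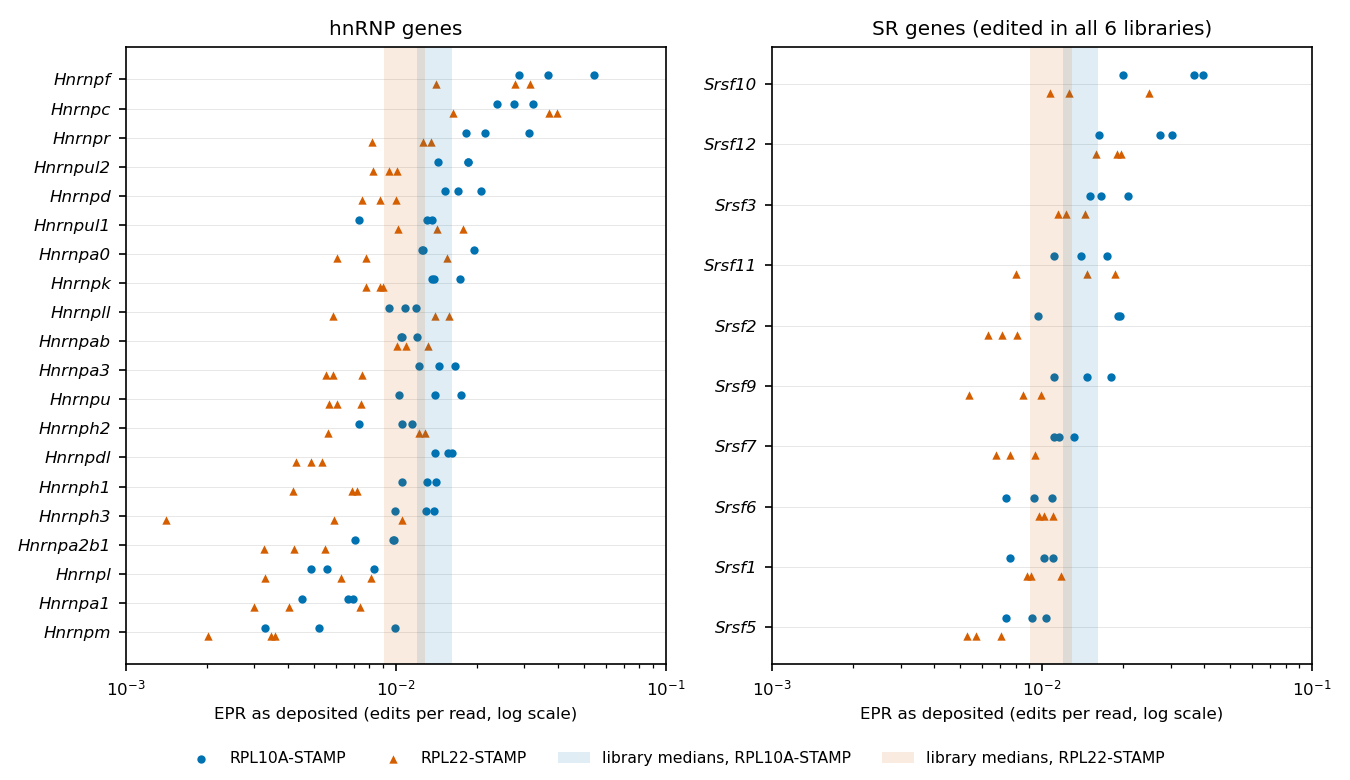
EPR as deposited (horizontal axis, edits per read, log scale) of 20 hnRNP genes (left) and 10 SR genes edited in all 6 libraries (right), ordered by mean EPR, with circles for RPL10A-STAMP libraries and triangles for RPL22-STAMP libraries. Shaded bands span the 3 library medians of each variant over all 8046 genes edited throughout, and most hnRNP points lie on or to the left of the band of their variant, with *Hnrnpf* and *Hnrnpc* to the right.

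Between the variants 1 of 20 hnRNP genes was called (5.0%, against 14.3% of all tested genes). *Hnrnpdl* (ENSMUSG00000029328, GRCm38 chr5:100033577-100039664, minus strand), which encodes the hnRNP D-like protein, had an EPR of 0.0139, 0.0161 and 0.0156 in RPL10A-STAMP neurons and 0.00535, 0.00427 and 0.00484 in RPL22-STAMP neurons. Both groups were tight and far apart. The mean was 0.0152 ± 0.00113 (SD, n = 3) against 0.00482 ± 0.000537 (SD, n = 3), a ratio of 3.15, and the log2 fold change was 0.58 ± 0.13 (SE; limma, adjusted p = 0.0314). The pseudocount weighs on this gene, whose log2 fold change was 1.27 without it. Of the called genes its call was the least stable, being lost in 11 of 19 alternatives. Among them were those without RPL10A-STAMP replicates 1, 2 and 3 and RPL22-STAMP replicates 2 and 3, with limma adjusted p of 0.0887, 0.0914, 0.0810, 0.0849 and 0.0836.

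Its relative *Hnrnpd* (AUF1), which binds AU-rich elements, had 0.0152, 0.0207 and 0.0171 in RPL10A-STAMP neurons and 0.00751, 0.00872 and 0.0101 in RPL22-STAMP neurons. *Hnrnpd* was thus also without overlap, at a ratio of means of 2.01, but its log2 fold change of 0.34 ± 0.13 (SE) was not called (limma, adjusted p = 0.133) and was 0.0284 with the GC trend removed. The ratio of *Hnrnpdl* to *Hnrnpd* was 0.918, 0.779 and 0.913 in RPL10A-STAMP neurons and 0.712, 0.490 and 0.481 in RPL22-STAMP neurons.

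Over the 20 hnRNP genes the median log2 fold change was 0.24, with 13 above 0 and 7 below, and this direction was lost when a trend with exonic GC content was removed, with a median of -0.02 and 10 genes on either side. An unadjusted p under 0.05 was found for 7 of the 20 (35.0%), against 30.9% of all tested genes. Besides *Hnrnpdl* these were *Hnrnpa2b1*, *Hnrnpa3*, *Hnrnpd*, *Hnrnph1* and *Hnrnpu* with log2 fold changes from 0.26 to 0.39 and *Hnrnpul1* with -0.39. After scaling the RPL10A-STAMP libraries were all above the RPL22-STAMP libraries for 8 of the 20 hnRNP genes and all below for 2, against 20.0% and 17.1% of all tested genes. The ratio of means of *Hnrnpa2b1*, a core hnRNP particle gene, was 2.07, and that of *Hnrnpu*, which also organises chromatin, was 2.18.

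SR genes did not differ detectably between the variants. None of the 10 SR genes edited in all 6 libraries was called by limma, and none had an unadjusted p under 0.05, where 30.9% of all tested genes did. Their median log2 fold change was 0.06, with 7 above 0 and 3 below, and the range was -0.28 to 0.44. With the exonic GC trend removed the median was -0.24, with 2 above 0 and 8 below. The widest interval belonged to *Srsf10*, from -0.03 to 0.90, so differences of that size are not excluded. *Srsf10*, which represses splicing when dephosphorylated, had the highest mean EPR, with 0.0200, 0.0395 and 0.0367 in RPL10A-STAMP neurons and 0.0107, 0.0249 and 0.0126 in RPL22-STAMP neurons, which overlapped. *Srsf5* had the lowest, with 0.00740, 0.00924 and 0.0104 in RPL10A-STAMP neurons and 0.00528, 0.00705 and 0.00570 in RPL22-STAMP neurons.

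The RPL10A-STAMP values of *Srsf5* all lay above the RPL22-STAMP values, also after scaling, and its log2 fold change was 0.08 ± 0.11 (SE), or 0.19 without the pseudocount. As deposited, 5 of the 10 SR genes were higher in every RPL10A-STAMP library and none in every RPL22-STAMP library, against 28.2% and 6.21% of all tested genes. After scaling 2 of the 10 were higher in each variant (20.0% each), close to the 20.0% and 17.1% of all tested genes. *Srsf4*, one of the larger SR proteins, had an EPR of 0.00156, 0.00893 and 0 in RPL10A-STAMP neurons and 0.00901, 0.00579 and 0.00466 in RPL22-STAMP neurons, which overlapped. The median percentile of the SR genes was 41.1, close to that of the hnRNP genes, and *Srsf12* and *Srsf10* stood highest at 74.1 and 73.3.

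**Figure D4:**
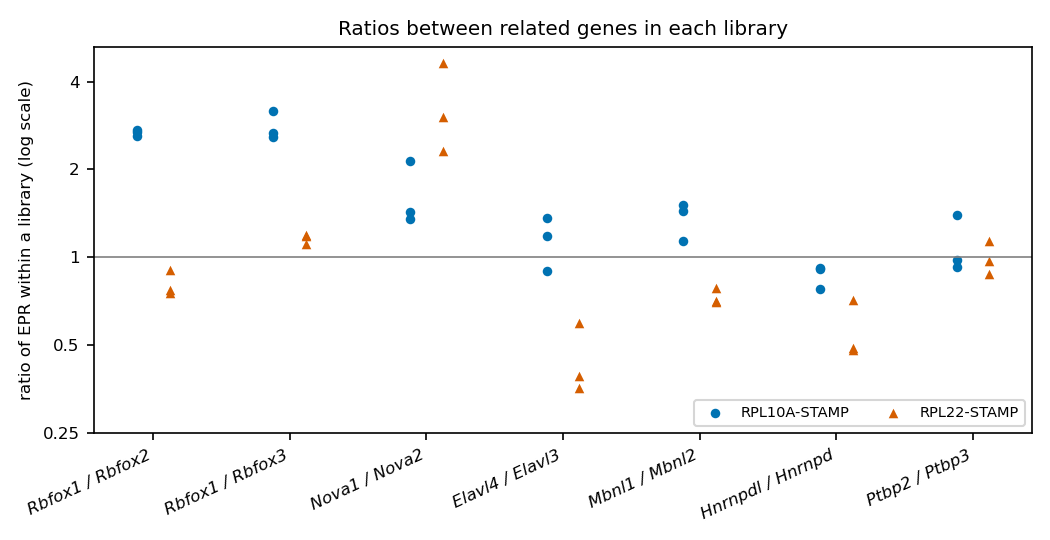
Ratio of the EPR of 2 related genes within each library (vertical axis, log scale) for 7 pairs, with circles for RPL10A-STAMP and triangles for RPL22-STAMP. The pairs were chosen after values were seen and no share over other pairs was computed. The groups are apart in 6 pairs, with RPL10A-STAMP the higher in 5 and RPL22-STAMP the higher for *Nova1* over *Nova2*, and they overlap for *Ptbp2* over *Ptbp3*.

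Libraries of 1 variant ranked the 49 genes more alike than libraries of different variants. Spearman's rho over the 49 genes was 0.768 to 0.864 for the 6 pairs of libraries within a variant and 0.526 to 0.6995 for the 9 pairs between variants. Over all 8046 genes the means were 0.742 within and 0.549 between, against 0.818 and 0.616 for the splicing genes. These values describe genes within shared libraries and were not tested.

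The base composition of the transcripts moved with the difference between variants over all genes. Spearman's rho between exonic GC content and log2 fold change was -0.48 over 8039 genes, and -0.17 over the 49 splicing genes. *Nova1* and *Mbnl1* had low exonic GC contents of 37.3% and 37.8% and changed in opposite directions, while *Rbfox1* stood at 48.3% and *Hnrnpdl* at 46.9%. The 24 splicing genes of lower GC content held 2 of the 4 calls and a median log2 fold change of 0.06, and the 25 of higher GC content held the other 2 and a median of 0.01. The part of base composition in these results was not tested beyond the fits with such a trend removed.

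Other genes of the splicing machinery were taken from fixed lists of 42 core spliceosome genes, 49 further regulators and 9 kinases of SR proteins. Of these 100 genes, 84 were edited in all 6 libraries and 13 of the 84 were called (15.5%, close to the 14.3% of all tested genes), 7 higher with RPL10A-STAMP and 6 with RPL22-STAMP, with a median log2 fold change of -0.01. In the core spliceosome 3 of 33 were called (9.09%). They were the helicase *Dhx15*, which takes spliceosomes apart (1.30 ± 0.15, SE; limma, adjusted p = 0.00453), *U2af1*, which reads the 3′ splice site (-0.70 ± 0.16, SE; limma, adjusted p = 0.0326), and *Eif4a3* of the exon junction complex (-0.54 ± 0.14, SE; limma, adjusted p = 0.0476).

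Among the further regulators 9 of 44 were called (20.5%, against 14.3% of all tested genes). *Taf15* rose by 1.49 on the log2 scale with RPL10A-STAMP over RPL22-STAMP, *Tia1* by 0.88, *Son* by 0.87, *Syncrip* by 0.75 and *Rbm3* by 0.58. Lower with RPL10A-STAMP were *Raly*, an hnRNP C relative (-1.64), *Msi1* (-1.52), *Acin1* (-0.55) and *Srrm2* (-0.52). *Raly* had an EPR of 0.00557, 0.00469 and 0.00644 in RPL10A-STAMP neurons and 0.0237, 0.0290 and 0.0453 in RPL22-STAMP neurons, far apart, while its relative *Hnrnpc* had 0.0238, 0.0275 and 0.0323 against 0.0163, 0.0397 and 0.0371, which overlapped (log2 fold change -0.34 ± 0.20, SE; limma, adjusted p = 0.283). *Syncrip*, called, and *Hnrnpr*, its relative, not called (0.38 ± 0.20, SE; limma, adjusted p = 0.243), both had means that were higher with RPL10A-STAMP. Of the kinases that phosphorylate SR proteins, 1 of 7 was called (14.3%, the same as the 14.3% of all tested genes). It was *Clk1* (1.09 ± 0.17, SE; limma, adjusted p = 0.00954), with 0.0187, 0.0375 and 0.0336 in RPL10A-STAMP neurons and 0.00506, 0.00861 and 0.00401 in RPL22-STAMP neurons.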

How the data were processed

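EPR was analysed in 6 libraries, 3 per variant. The authors used cutadapt for trimming, STAR for alignment to mm10, SAILOR for edits and featureCounts for reads, and deposited the ratio of edits to reads per gene, with no normalization between libraries. The gene annotation of their counting is not given in the sources used here. The study calls its replicates biological in one place and technical in another, so p-values may measure technical spread only. Of 31053 identifiers, 31011 were found in GENCODE mouse release M21, which gave symbols and positions. Each library was divided by its median over the 8046 genes edited in all 6 and brought back to the EPR scale with the geometric mean of these medians. Log2(EPR + 0.01) was fitted with limma 3.58.1 (R 4.3.3, variance trend) with Benjamini-Hochberg adjustment over the 8046 genes, and the fit was tested on simulated data. Copies in GRCm38 were searched with BLAST 2.17.0. Other steps used pandas 2.3.3 and scipy 1.17.1 in Python 3.11.15, with plots by matplotlib 3.10.9. The study removed genes that responded to Dox in later work, and none was removed here.

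The members and lists were chosen with earlier results of these data known. Named genes were the called members, all RBFOX, NOVA, ELAVL and PTBP genes, the highest and lowest mean EPR of the hnRNP, SR, CELF and MBNL genes, and called genes of the other splicing lists. Other names, the gene pairs and the coding stretches were chosen after values were seen. Genes listed at 0 in any library were left out of this fit. Alternatives covered the filter, pseudocount, scaling, replicate block, GC content, length, variance trend, the methods' t-test and each library left out.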

Additional observations from a re-analysis of the deposited data

How the results depend on the processing

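The 4 calls among the 49 genes became 3 with genes edited in at least 3 libraries, 2 with no filter, 4 with a pseudocount of 0.001, with none, with quantile normalization and without a variance trend, 3 with the GC trend removed, 6 with a length trend removed, and 5 with the exonic GC trend removed, which was chosen after seeing the data. For these fits, and for the others below except the methods' t-test, the share of all tested genes called is not given beside the count. The changes in count therefore cannot be read as particular to the splicing genes. The direction of the calls moved with these fits. As reported 3 were higher with RPL10A-STAMP and 1 with RPL22-STAMP, against 1 and 2 with the GC trend removed. With the exonic GC trend removed the counts were 2 and 3, and with the length trend removed 4 and 2. In each of these fits *Rbfox1* was called as higher with RPL10A-STAMP and *Nova1* as higher with RPL22-STAMP. Not every gene called in the GC fits is named here. The shares of all tested genes called in each direction are not given for these fits, so these moves cannot be read as particular to the splicing genes either. The replicate block left 2 calls, *Mbnl1* (limma, adjusted p = 0.0342) and *Rbfox1* (limma, adjusted p = 0.0467). *Nova1* (limma, adjusted p = 0.0575) and *Hnrnpdl* (limma, adjusted p = 0.069) lost theirs. The GC trend with the block also left 2, *Rbfox1* (limma, adjusted p = 0.0466) and *Nova1* (limma, adjusted p = 0.0484). The deviations of same-numbered libraries correlated at r = 0.0437, 0.0464 and -0.00546, and those of differently numbered libraries at -0.0486 to 0.00406. Values this small cannot decide whether libraries of the same number shared a culture or batch, so fits with and without the block are given. The methods' t-test called 0 genes after adjustment (17 of 49 at an unadjusted p under 0.05, and 1996 of 8046). Leaving out 1 library gave 1 to 4 calls, namely 2, 2 and 1 without RPL10A-STAMP replicates 1, 2 and 3, and 4, 3 and 2 without RPL22-STAMP replicates 1, 2 and 3. The median log2 fold change of the 49 genes, 0.04, was 0.25 without scaling, -0.000514 with the GC trend removed, with or without the block, -0.0679 with the exonic GC trend removed and 0.48 in the methods' t-test, and ran from 0.0228 to 0.087 with 1 library left out.

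Among the called genes no sign turned in any of the 19 alternatives. *Rbfox1* kept its call in 16, *Mbnl1* in 15, *Nova1* in 12 and *Hnrnpdl* in 8, with adjusted p of 0.0079 to 0.0675, 0.00865 to 0.135, 0.010 to 0.254 and 0.0163 to 0.123 over the alternatives. Of the 49 genes, 28 were above 0 as reported, 38 without scaling and 22 with the exonic GC trend removed. Among 16 genes followed by name that were not called, signs turned as follows, and the cause was not tested. Without scaling the log2 fold change was 0.13 for *Rbfox3*, 0.12 for *Nova2*, 0.18 for *Elavl1*, 0.13 for *Elavl2* and 0.18 for *Ptbp3*, and in the methods' t-test, on unscaled values, 0.25, 0.16, 0.28, 0.30 and 0.38. With the GC trend removed, with or without the block, it was 0.25 for *Rbfox3*, 0.18 for *Nova2*, -0.0288 for *Elavl4*, -0.31 for *Ptbp2* and -0.000514 for *Hnrnpu*. With the exonic GC trend removed it was 0.28 for *Rbfox3*, 0.20 for *Nova2*, -0.44 for *Ptbp2*, -0.14 for *Hnrnpa2b1*, -0.19 for *Hnrnph1* and -0.0346 for *Hnrnpu*. *Ptbp2* was called in that fit as higher with RPL22-STAMP (limma, adjusted p = 0.0459). With the length trend removed *Elavl2* had 0.059. Without a turn of sign, *Rbfox2* (-0.49, limma, adjusted p = 0.0464) and *Hnrnpa3* (0.51, limma, adjusted p = 0.0373) were called in the fit with the length trend removed. With 1 library left out *Elavl1* ran from -0.114 to 0.0938, *Elavl2* from -0.246 to 0.0132 and *Ptbp3* from -0.0892 to 0.108. The number of libraries and the unknown reads behind each EPR limit what could be called.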
